A study of Homo sapiens with 60 samples.

Results

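The enzymes of glutathione synthesis, recycling and transsulfuration were followed through a time course of metal exposure as a set of 9 genes, GCLM, GCLC, GSS, GSR, CHAC1, CTH, CBS, GGCT and GSTP1. They were taken by gene name from a table of 62703 genes, and each name matched 1 row. The cells were 1321N1, an astrocyte-derived human line from a brain tumor. They were treated in full medium with arsenic (sodium metaarsenite, 2.55 µM), cadmium (cadmium chloride, 2.3 µM) or mercury (mercury chloride, 20 µM), or were left non-treated, and were collected after 1.5 h and after 3, 6, 12 or 24 h. Doses had been set by the study to be about equally toxic, and each time point had its own non-treated cells. The 20 groups held 3 libraries each, 60 in all, which the series describes as technical triplicates of 1 line, so p-values measure the spread between these libraries only.

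Glutathione is a tripeptide of glutamate, cysteine and glycine that serves as the main thiol buffer of the cell, and its thiol group binds arsenic, cadmium and mercury. Glutamate-cysteine ligase makes its precursor in the rate-limiting step and consists of a catalytic subunit (GCLC) and a modifier subunit (GCLM), after which glutathione synthetase (GSS) adds glycine. Glutathione reductase (GSR) returns oxidized glutathione to the reduced form, CHAC1 and GGCT act in its breakdown, and GSTP1 couples it to reactive compounds. Cysteine can be supplied from methionine by transsulfuration through cystathionine beta-synthase (CBS) and cystathionine gamma-lyase (CTH). In the brain, astrocytes are known for holding glutathione and for supplying its building blocks to neurons.

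Libraries held 2215276 to 4404609 counts, and replicates correlated at 0.958 to 0.977. Levels are given as CPM (counts per 1000000 counts of the normalized library total), and the log2 fold change is abbreviated LFC. Of the astrocyte markers, SOX9 (median 78.2 CPM) and GJA1 (20.4 CPM) were present, whereas GFAP was at 0 in 57 of 60 libraries, S100B in 59, and AQP4 and ALDH1L1 in all 60. VIM (median 4490 CPM) and CD44 (394 CPM), which are typical of glioma lines, were abundant, whereas NES, on the same list, was low (median 3.41 CPM). Of 15 markers of neurons, microglia, oligodendrocytes and endothelium only SYT1 had a median above 0 (11 CPM). Of the markers that passed the filter, SYT1 was higher in mercury at 6 h (LFC 1.30, adjusted p = 8.38e-04) and 12 h (0.79, adjusted p = 0.0381). SOX9 was lower in arsenic at 12 h (-0.65) and 24 h (-0.98), and SOX9, GJA1 and CD44 were higher in cadmium at 12 h (0.55, 0.70 and 0.37). CD44 was lower in arsenic (-0.46) and NES in mercury (-1.62) at 24 h, and the part of these markers in the changes below was not tested.

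In the 15 non-treated libraries, the median level was 461 CPM for GSTP1, 129.5 CPM for GCLM, 94.0 CPM for GGCT, 76.3 CPM for GSR, 21.6 CPM for GSS, 8.66 CPM for GCLC, 3.996 CPM for CHAC1 and 2.79 CPM for CTH. CBS was at 0 in all 15. Reads came from the 3′ ends of transcripts and were not divided by length, and these levels are not ranked between genes. Behind them stood 288 to 1929 counts per library for GCLM, 13 to 72 for GCLC, 2 to 112 for CTH and 1 to 186 for CHAC1, so that the last 3 genes were measured with less precision. Of the 9 genes, 8 passed the filter on low counts and were tested, and CBS did not.

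Among the 8 genes tested, GCLM, GCLC, GSR, CHAC1 and CTH were higher than in non-treated cells at 1 or more times in each metal, and GSS, GGCT and GSTP1 were called in 0 of 15 comparisons. No gene of the set was called lower in any metal at any time. In arsenic the number called higher, at an adjusted p under 0.05 in edgeR's quasi-likelihood test, was 0 at 1.5 h, where 0.0648% of all 12341 genes tested were called higher. It was 1 at 3 h (GCLM, beside 0.122% of all genes), 3 at 6 h (GCLM, CHAC1 and CTH, beside 0.608%), 4 at 12 h (GCLM, GSR, CHAC1 and CTH, beside 2.37%) and 5 at 24 h (these and GCLC, beside 6.54%). The number of genes called thus grew at each time from 3 h on in arsenic. The last step was GCLC, whose LFC was no larger at 24 h (0.74, adjusted p = 0.0327) than at 12 h (0.81, adjusted p = 0.0637).

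In cadmium the number called higher was 0 at 1.5 h (0% of all genes were called higher), 0 at 3 h (0.203%), 2 at 6 h (GCLM and CHAC1, beside 1.6%), 4 at 12 h (GCLM, GCLC, GSR and CTH, beside 5.19%) and 1 at 24 h (GCLM, beside 1.56%). Cadmium was the metal in which most of these genes were no longer called at the last time point, which counts calls and does not test a change. In mercury the number was 2 at 1.5 h and 2 at 3 h (GCLM and CHAC1 at both, beside 0.478% and 1.39% of all genes), 3 at 6 h (with CTH, beside 4.49%), 5 at 12 h and 5 at 24 h (GCLM, GCLC, GSR, CHAC1 and CTH, beside 8.89% and 13.9%). For the 4 comparisons in cadmium and arsenic with 0 or 1 gene called by 3 h, the number of genes with an unadjusted p under 0.05 was also 0 or 1, and DESeq2 called 0 genes where edgeR did. The median LFC of the 8 genes at 24 h was 0.67 in arsenic, 0.31 in cadmium and 1.03 in mercury, beside 0.00041, -0.00694 and -0.0211 for all genes tested.

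**Figure D1:**
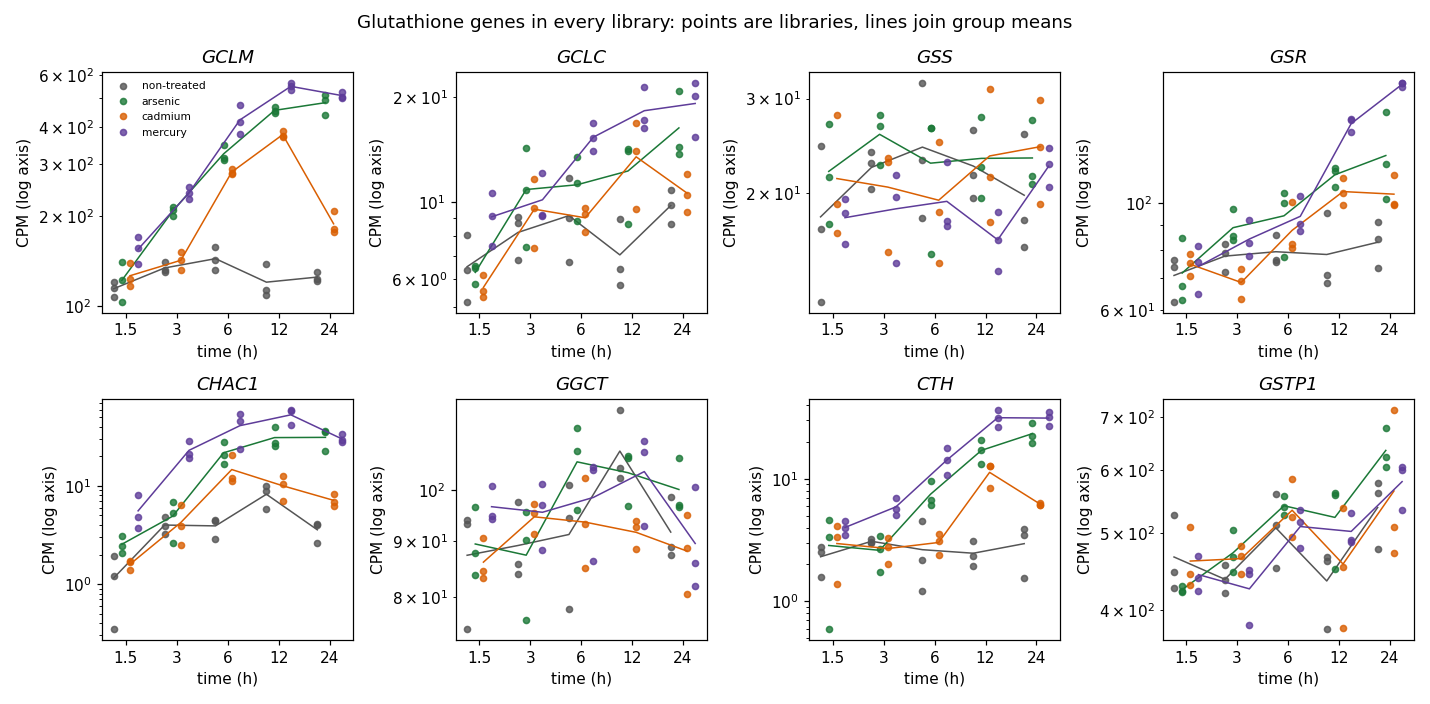
Level of each of the 8 tested genes in every library (y axis, CPM on a log axis) by time (x axis, h); points are single libraries, lines join the means of 3 libraries, and colors mark non-treated, arsenic, cadmium and mercury. GCLM, CHAC1 and CTH were called higher in arsenic and mercury at 24 h. The mercury mean of CHAC1 was 53.0 CPM at 12 h and 30.2 CPM at 24 h, and the non-treated mean was 8.22 and 3.57 CPM. Cadmium turned back toward non-treated cells between 12 and 24 h for GCLM, and GSS, GGCT and GSTP1 were called at no time.

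Around the start of transcription, stress-induced genes are known to hold the antioxidant response element, bound by NRF2, or the amino acid response element, bound by ATF4, and the matches found in this set are shown for 3 genes. Promoters of 300 bases, from 250 before to 50 after the RefSeq start, were at hand for 6 of the 9 genes (GRCh38.p14). Each was searched on both strands for 4 motifs. These were the antioxidant response element core TGACNNNGC, held by 13.3% of all 35116 promoters, the amino acid response element core TGATGNAA (3.62%), the metal response element core TGCACNC or TGCGCNC (29.6%) and the heat shock element pair GAANNTTC (6.77%). The stretches below hold 30 bases each, 5′ to 3′ on the gene's strand, with the match to the antioxidant or amino acid core in capitals.
GCLM, chr1:93909445-93909474, minus strand: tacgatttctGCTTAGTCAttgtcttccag
GSTP1, chr11:67583736-67583765, plus strand: gccggcgccgTGACTCAGCactggggcgga
CHAC1, chr15:40953251-40953280, plus strand: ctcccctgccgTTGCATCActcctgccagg
In GCLM, the capitals are the antioxidant core read on the opposite strand, 34 bases before the RefSeq start at 93909430. GSTP1 held that core 66 bases before its start at 67583812, and CBS held it 83 bases before 1 of its 3 starts. The capitals in CHAC1 are the amino acid core on the opposite strand, 209 bases before the start at 40953471. Longer GENCODE transcripts start further upstream, so that the matches in GSTP1 and CHAC1 lie inside an annotated exon, as does 1 base of the match in GCLM.

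The promoters of GCLC and CTH held neither of these cores in their 300 bases. The metal response element core was found in 5 genes (GCLM, GCLC, CTH, GSTP1 and CBS) and the heat shock pair in 0. A match describes letters and was not tested as a site. Of the genes with the antioxidant core, GCLM was called in 12 of 15 comparisons with non-treated cells, GSTP1 in 0, and CBS could not be tested.

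GCLM, which encodes the modifier subunit of glutamate-cysteine ligase (ENSG00000023909, chr1:93885199-93909456, minus strand), was the gene of the set called most often. In non-treated cells its level was 121, 107 and 115 CPM at 1.5 h and 122, 130.3 and 123 CPM at 24 h, and no later time differed from 1.5 h by the test. In mercury it read 170.1, 139 and 157 CPM at 1.5 h, 229, 252 and 239.9 CPM at 3 h, 416, 380.4 and 474 CPM at 6 h, 534, 564.5 and 549 CPM at 12 h and 500.4, 526.5 and 507 CPM at 24 h. All mercury libraries lay above all non-treated libraries of the same time, from 1.5 h on.

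In mercury, the LFC of GCLM was 0.44 ± 0.10 (SE, adjusted p = 0.00673) at 1.5 h, 0.84 at 3 h, 1.56 at 6 h, 2.19 at 12 h and 2.03 ± 0.10 (adjusted p = 6.8e-28) at 24 h, which was a 4.57-fold difference at 12 h and a 4.09-fold difference at 24 h. The call at 1.5 h was lost without mercury replicate 1 (LFC 0.37, adjusted p = 0.153) or without non-treated replicate 2 (LFC 0.39, adjusted p = 0.126), so the earliest mercury call rested on single libraries.

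In arsenic GCLM was first called at 3 h. Its libraries stood at 122, 103 and 140.0 CPM at 1.5 h, where they overlapped with the non-treated ones, at 210.5, 201 and 215 CPM at 3 h, and at 441, 495 and 515 CPM at 24 h. The LFC was 0.64 ± 0.10 (adjusted p = 1.37e-05) at 3 h, 1.18 at 6 h, 1.92 at 12 h and 1.95 ± 0.09 (adjusted p = 1.32e-26) at 24 h, and the libraries did not overlap with non-treated ones at these 4 times.

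In cadmium GCLM was first called at 6 h. It read 152, 132 and 142 CPM at 3 h, 280.4, 278 and 289 CPM at 6 h, 371, 372 and 389 CPM at 12 h and 182, 177 and 208.0 CPM at 24 h. The gene thus stood above all non-treated libraries at 6, 12 and 24 h, with its highest values at 12 h. The LFC was 0.08 (adjusted p = 0.885) at 3 h, 0.97 at 6 h, 1.65 ± 0.10 (adjusted p = 6.56e-23) at 12 h and 0.59 ± 0.10 (adjusted p = 1.1e-05) at 24 h.

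The change of each effect from 12 to 24 h was tested as a difference of differences. For GCLM in cadmium it was -1.06 ± 0.13 (adjusted p = 6.36e-07), the only call among the 8 genes and 3 metals, and 0.381% of all genes were called in that test. In arsenic the change of the GCLM effect was 0.03 (interval -0.23 to 0.30, adjusted p = 0.947, beside 1.57% of all genes called), and in mercury it was -0.16 (interval -0.42 to 0.11, adjusted p = 0.748, beside 0.624%). For CTH in cadmium the change was -1.14 ± 0.54 and for GCLC -0.84 ± 0.37, in the same direction as GCLM but with adjusted p = 0.454 and 0.403. For GSR in cadmium the change was -0.09 ± 0.18 (adjusted p = 0.919).

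**Figure D2:**
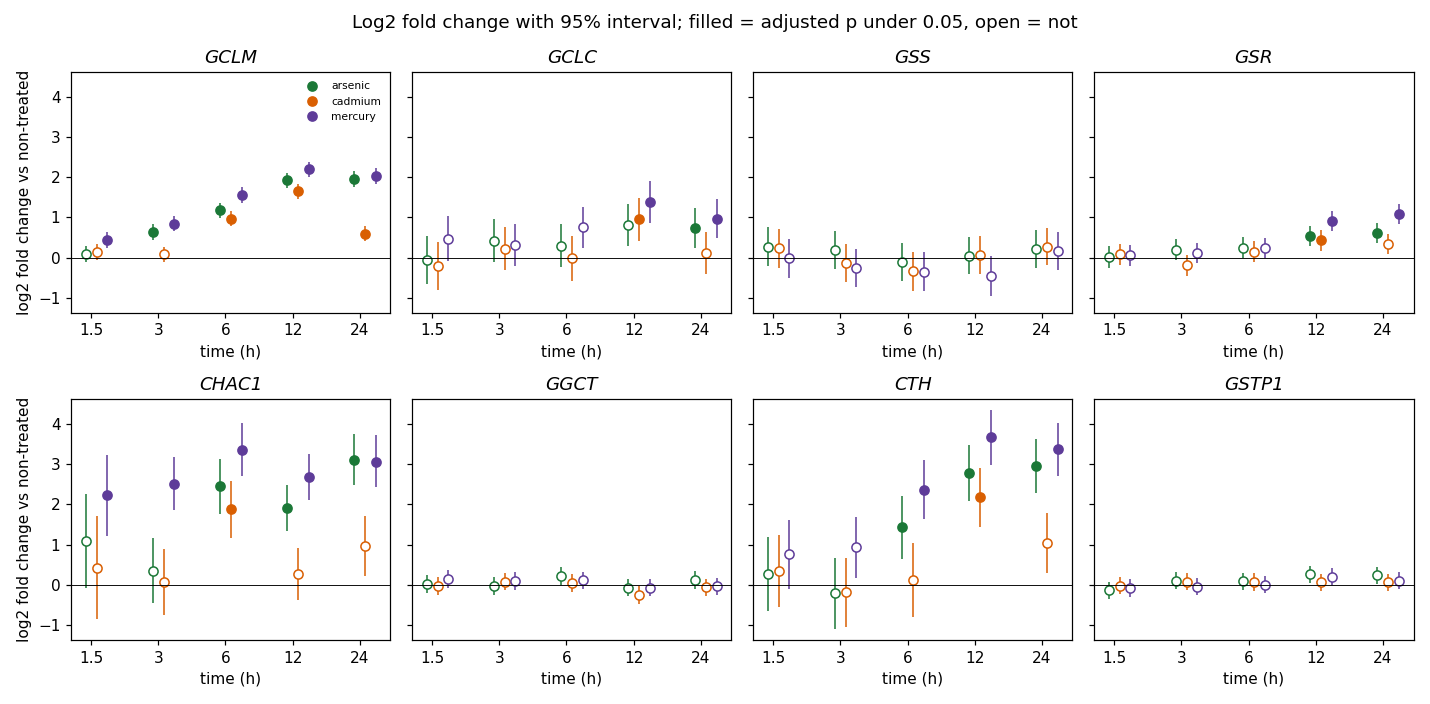
LFC against non-treated cells of the same time (y axis, log2 scale) with its 95% interval for each gene, by time (x axis, h) and metal; filled points passed an adjusted p under 0.05 and open points did not. The cadmium point of GCLM fell from 1.65 at 12 h to 0.59 at 24 h, while those of arsenic and mercury at 24 h were 1.95 and 2.03.

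GCLC, the catalytic subunit (ENSG00000001084, chr6:53497341-53616970, minus strand), was present at lower counts than GCLM. At 24 h it read 10.8, 9.84 and 8.66 CPM in non-treated cells, 13.7, 20.8 and 14.4 CPM in arsenic, 10.5, 12.0 and 9.34 CPM in cadmium and 15.4, 22.0 and 20.2 CPM in mercury. Arsenic and mercury lay above the non-treated libraries at this time and cadmium overlapped with them. At 12 h, non-treated cells had 6.43, 8.96 and 5.76 CPM and mercury-treated cells 17.2, 21.4 and 16.3 CPM.

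The mercury LFC of GCLC was 1.38 ± 0.26 (adjusted p = 4.1e-05) at 12 h and 0.97 ± 0.25 (adjusted p = 0.00164) at 24 h. In arsenic it was 0.74 ± 0.25 (adjusted p = 0.0327) at 24 h, but without arsenic replicate 2, the library at 20.8 CPM, it was 0.53 with adjusted p = 0.255, and the call was also lost without non-treated replicate 1, 2 or 3 (adjusted p = 0.0539, 0.0813 and 0.0982). In cadmium GCLC was called at 12 h only (LFC 0.96 ± 0.27, adjusted p = 0.0133), and that call was lost without cadmium replicate 2 or 3 (adjusted p = 0.141 and 0.0526) or without non-treated replicate 1 or 3 (adjusted p = 0.07 and 0.0852). Without a filter on low counts both calls were lost (adjusted p = 0.147 in arsenic and 0.0682 in cadmium), and the arsenic one also with only the 6 libraries compared (adjusted p = 0.0883). The mercury calls at 12 and 24 h were kept in all 12 alternatives. At the 3′ end of its transcripts, within 400 bases, 8.86% of windows of 50 bases also occur in another annotated gene.

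The 2 subunits were also set against each other as GCLM counts per GCLC count in each library, which shows how unequally their RNAs changed and not the make-up of the enzyme. At 24 h the ratio was 11.2 to 14.2 in non-treated cells (geometric mean 12.8), 23.8 to 35.7 in arsenic (30.1), 14.7 to 22.3 in cadmium (17.9) and 23.9 to 32.4 in mercury (26.9). All treated libraries lay above all non-treated ones at this time, when the non-treated ratio was at its lowest (16.1 to 17.8 at the other times). In arsenic this also held at 6 and 12 h and in mercury at 3, 6 and 12 h. In cadmium it held at 6 h, whereas at 12 h the ratio was 22 to 39 against 12.2 to 24 in non-treated cells (p = 0.2, exact permutation test) and at 3 h the log2 difference was -0.12. At 24 h the log2 difference was 1.23 in arsenic, 0.48 in cadmium and 1.07 in mercury, each with p = 0.1 in a 2-sided exact permutation test, the smallest value that 3 against 3 libraries allow (0.167 adjusted over 15 comparisons).

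**Figure D3:**
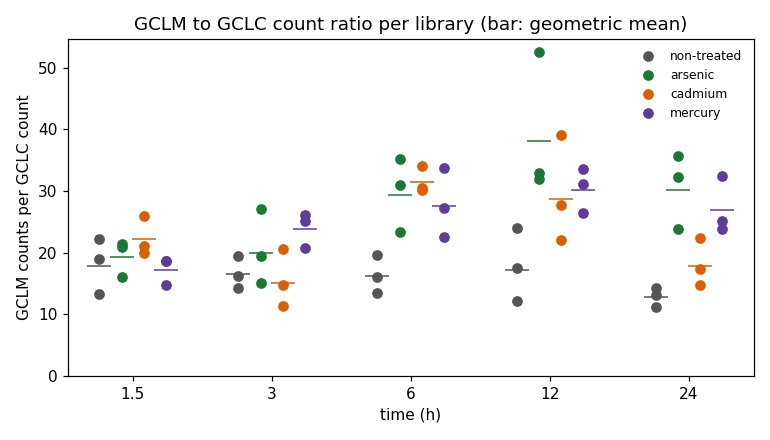
GCLM counts per GCLC count in each library (y axis, from 0) by time (x axis, h); points are libraries, horizontal bars are geometric means of 3 libraries, and colors mark the treatment. Non-treated libraries stood at 11.2 to 14.2 at 24 h, and every treated library of that time was above them.

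GSS, the synthetase of the second step (ENSG00000100983, chr20:34928432-34956027, minus strand), was called in none of the comparisons. At 24 h it read 25.8, 17.8 and 15.9 CPM in non-treated cells, 27.4, 20.8 and 21.5 CPM in arsenic, 19.1, 24.3 and 29.8 CPM in cadmium and 24.2, 22.6 and 20.5 CPM in mercury, and the groups overlapped. The 95% interval of its 24 h LFC ran from -0.25 to 0.69 in arsenic, from -0.19 to 0.74 in cadmium and from -0.30 to 0.65 in mercury. A rise of GSS as large as that of GCLM in arsenic or mercury therefore lay outside the interval, whereas a rise by 0.59, as GCLM had in cadmium, lay within it. At 12 h in mercury all 3 libraries (14.3, 18.5 and 16.3 CPM) were below the non-treated ones (19.6, 21.6 and 26.2 CPM), with an LFC of -0.45 and adjusted p = 0.22.

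GSR, the reductase that recycles glutathione (ENSG00000104687, chromosome 8), was first called at 12 h. It read 84.5, 91.3 and 73.3 CPM in non-treated cells at 24 h, 102.0, 121 and 155 CPM in arsenic, 114.5, 99.4 and 99.9 CPM in cadmium and 178, 174.5 and 178 CPM in mercury. Every treated library was above every non-treated one, and the mercury libraries were also above all of the other metals. The LFC at 24 h was 1.09 ± 0.12 (adjusted p = 5.95e-11) in mercury, 0.60 ± 0.12 (adjusted p = 2.48e-04) in arsenic and 0.34 ± 0.13 (adjusted p = 0.18) in cadmium.

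At 12 h the LFC of GSR was 0.90 in mercury (adjusted p = 5.5e-08), 0.55 in arsenic (adjusted p = 0.00266) and 0.43 in cadmium (adjusted p = 0.023). Before 12 h GSR was called in 0 comparisons of any metal. The arsenic call was lost without non-treated replicate 2 (LFC 0.46, adjusted p = 0.0533). The cadmium call was lost without non-treated replicate 1 or 2 (adjusted p = 0.15 and 0.129) or without cadmium replicate 1 or 3 (adjusted p = 0.0959 and 0.0682).

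CHAC1, which cleaves glutathione in the cytosol and is known as a target of the integrated stress response (ENSG00000128965, chr15:40952962-40956512, plus strand), was called in mercury from 1.5 h on. In non-treated cells it read 1.91, 0.349 and 1.19 CPM at 1.5 h, which were 6, 1 and 3 counts, and 5.87, 9.88 and 8.91 CPM at 12 h. This was the one gene of the set called over time in non-treated cells, with an LFC of 2.77 ± 0.48 (adjusted p = 1.29e-04) at 12 h against 1.5 h, where 4.09% of all genes were called. At 3, 6 and 24 h against 1.5 h, 0 of the 8 genes were called, beside 0.122%, 0.486% and 3.29% of all genes, although CHAC1 had LFCs of 1.74, 1.73 and 1.58 there, and 2 of the 8 genes had an unadjusted p under 0.05 at each of these times.

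In mercury CHAC1 read 3.74, 4.80 and 8.17 CPM at 1.5 h, 21.3, 19.4 and 28.4 CPM at 3 h, 45.7, 54.0 and 23.6 CPM at 6 h, 58.1, 59.3 and 41.6 CPM at 12 h and 28.0, 33.5 and 29.1 CPM at 24 h. It lay above all non-treated libraries at each time, and its mean level was highest at 12 h (53.0 CPM). The LFC was 2.22 ± 0.50 (adjusted p = 0.00959) at 1.5 h, 2.52 at 3 h, 3.36 ± 0.33 (adjusted p = 1.06e-12) at 6 h, 2.68 at 12 h and 3.06 at 24 h. Non-treated cells were also higher at 12 h than at 6 h, and the LFC was smaller at 12 h although the mercury level was higher. The call at 1.5 h was lost without mercury replicate 3 (LFC 1.84, adjusted p = 0.248) and without non-treated replicate 2 (adjusted p = 0.197) or 3 (adjusted p = 0.0642).

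In arsenic CHAC1 was not called at 3 h (6.80, 2.63 and 5.33 CPM, against 4.83, 3.89 and 3.25 CPM in non-treated cells) and was called from 6 h on. It read 20.7, 28.1 and 16.5 CPM at 6 h and 35.1, 35.9 and 22.7 CPM at 24 h, against 2.86, 4.39 and 4.50 CPM and 4.12, 3.996 and 2.60 CPM in non-treated cells. The LFC was 2.45 ± 0.34 (adjusted p = 4.74e-07) at 6 h, 1.92 at 12 h and 3.11 ± 0.32 (adjusted p = 8.2e-12, 8.63-fold) at 24 h. Arsenic means were 21.8, 31.1 and 31.2 CPM at 6, 12 and 24 h, and non-treated means were 3.91, 8.22 and 3.57 CPM. At 24 h the LFC of arsenic against mercury was 0.05 (interval -0.46 to 0.55).

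In cadmium CHAC1 was called at 6 h only. There it read 11.3, 12.1 and 20.6 CPM (LFC 1.88 ± 0.36, adjusted p = 3.04e-04), then 12.7, 10.4 and 7.02 CPM at 12 h and 6.82, 6.30 and 8.26 CPM at 24 h. Cadmium means were 14.7, 10.0 and 7.13 CPM at 6, 12 and 24 h, and non-treated means were 3.91, 8.22 and 3.57 CPM. At 12 h the cadmium libraries overlapped with non-treated ones (LFC 0.27, adjusted p = 0.7). At 24 h they were above them again, with an LFC of 0.97 ± 0.37 that did not pass the test (adjusted p = 0.199).

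GGCT, a gamma-glutamylcyclotransferase of the same breakdown route (ENSG00000006625, chr7:30496621-30504841, minus strand), was called in no comparison. At 24 h it read 98.6, 88.8 and 87.4 CPM in non-treated cells, 107.0, 97.0 and 96.6 CPM in arsenic, 88.6, 95.1 and 80.5 CPM in cadmium and 100.7, 81.8 and 85.9 CPM in mercury. The groups overlapped, and the 24 h intervals ran from -0.09 to 0.34 in arsenic, from -0.27 to 0.16 in cadmium and from -0.25 to 0.18 in mercury. At 12 h all 3 cadmium libraries (88.5, 92.5 and 93.8 CPM) were below the non-treated ones (118.3, 104.7 and 102.7 CPM). The LFC there was -0.24 (adjusted p = 0.171), and in arsenic at 6 h it was 0.22 (adjusted p = 0.514). For GGCT, 16.1% of the last exonic bases overlap with another annotated gene, and Union counting leaves out reads there. Of its windows of 50 bases at the 3′ end, 11.2% also occur in other annotated genes, GGCTP1 among them.

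CTH, the cystathionine gamma-lyase that releases cysteine (ENSG00000116761, chr1:70411218-70439851, plus strand), had the largest fold change of the set. In non-treated cells it read 1.96, 3.09 and 2.36 CPM at 12 h and 3.86, 1.54 and 3.46 CPM at 24 h. In mercury it read 10.7, 14.2 and 17.7 CPM at 6 h, 26.6, 36.3 and 31.4 CPM at 12 h and 31.8, 34.7 and 27.1 CPM at 24 h. The mercury libraries were above all non-treated ones at each time, with LFCs of 0.76 and 0.93 at 1.5 and 3 h that did not pass the test (adjusted p = 0.979 and 0.366). The LFC was 2.37 ± 0.36 (adjusted p = 1.35e-06) at 6 h, 3.66 ± 0.34 (adjusted p = 1.05e-13, 12.7-fold) at 12 h and 3.36 ± 0.33 (adjusted p = 4.47e-13, 10.3-fold) at 24 h.

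In arsenic CTH read 20.7, 13.2 and 17.1 CPM at 12 h and 22.1, 28.4 and 19.4 CPM at 24 h. The LFC was 2.78 ± 0.35 (adjusted p = 1.2e-08) at 12 h and 2.94 ± 0.33 (adjusted p = 1.63e-10, 7.69-fold) at 24 h. At 6 h it was 1.43 ± 0.39 with an adjusted p just under the threshold of 0.05, and the call was lost when any of 5 of the 6 libraries was left out, with the smallest LFC, 1.14 (adjusted p = 0.365), without non-treated replicate 1. The 6 h arsenic difference of CTH is thus at the edge of what these libraries show, and those at 12 and 24 h are not.

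Cadmium-treated cells had 12.7, 8.44 and 12.6 CPM of CTH at 12 h and 6.14, 6.30 and 6.11 CPM at 24 h. The LFC was 2.17 ± 0.37 (adjusted p = 1.47e-05) at 12 h. At 24 h the 3 libraries were still above the non-treated ones, with an LFC of 1.04 ± 0.37 that missed the threshold (adjusted p = 0.157). At 6 h cadmium and non-treated libraries overlapped (LFC 0.13, adjusted p = 0.942).

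CBS, which makes cystathionine in the step before CTH (ENSG00000160200, chr21:43053191-43076943, minus strand), was close to absent, with 18 counts in all 60 libraries. It was at 0 in all 15 non-treated and all 15 cadmium libraries. A count of 0 allows up to 3 counts in a library, which is 0.682 to 1.36 CPM at these depths. The counts came from 8 libraries. In mercury they were 1 at 6 h, 5 at 12 h, and 4 and 2 at 24 h, and in arsenic 2 at 1.5 h, 1 at 3 h, and 2 and 1 at 24 h. These are too few for a fold. An annotated copy of CBS shares 44.5% of the 50-base stretches at the 3′ end with it and had 0 counts in all libraries, so adding it changed no value. With so much sequence shared with the copy, the CBS counts are uncertain.

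GSTP1, the transferase (ENSG00000084207, chr11:67583742-67586656, plus strand), was called in none of the comparisons with non-treated cells. At 24 h it read 562, 578 and 477 CPM in non-treated cells, 623.5, 605 and 678 CPM in arsenic, 509, 472 and 715 CPM in cadmium and 535, 606 and 601 CPM in mercury. The arsenic libraries were above the non-treated ones, with an LFC of 0.24 (interval 0.03 to 0.45, adjusted p = 0.132), and the other metals overlapped with them. At 24 h the interval ran from -0.15 to 0.28 in cadmium and from -0.11 to 0.32 in mercury, below the LFC of GCLM in the same metals.

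The metals were then compared with each other at the same time, over 8 genes and 5 times. Mercury and cadmium differed most, in 15 gene and time pairs, and each was lower in cadmium. At 1.5 h this was CHAC1 (LFC of cadmium against mercury -1.79, adjusted p = 0.0222, beside 0.656% of all genes called in either direction), and at 3 h GCLM and CHAC1 (beside 1.78%). At 6 h GCLM, CHAC1 and CTH differed (beside 3.78%), and at 12 h GCLM, GSR, CHAC1 and CTH (beside 3.29%). At 24 h GCLM (-1.44 ± 0.09), GCLC (-0.85 ± 0.24), GSR (-0.76 ± 0.12), CHAC1 (-2.09 ± 0.29) and CTH (-2.33 ± 0.30) were lower in cadmium, beside 20% of all genes called in that comparison. The call of CHAC1 at 1.5 h was lost without mercury replicate 3 (adjusted p = 0.35) or without any 1 of the 3 cadmium libraries (0.0846 to 0.134). That of GCLC at 24 h was lost without mercury replicate 2 (adjusted p = 0.0528). That of GSR at 12 h was lost without cadmium replicate 2 or 3 (adjusted p = 0.116 and 0.0647) or mercury replicate 1 or 3 (adjusted p = 0.0538 and 0.0608).

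Arsenic and mercury differed in 7 pairs, each lower in arsenic. They were GCLM at 1.5 h (LFC of arsenic against mercury -0.35, beside 1.56% of all genes), CHAC1 at 3 h (-2.17 ± 0.32, adjusted p = 2.34e-06, beside 1.89%), GCLM and CHAC1 at 6 h (-0.38 and -0.91, beside 4.48%), CHAC1 and CTH at 12 h (-0.77 and -0.89, beside 6.84%) and GSR at 24 h (-0.49, beside 11.4%). Of these, CHAC1 at 3 h was the one called whichever library was left out. GCLM at 1.5 h was lost without any of 4 of the 6 libraries (adjusted p up to 0.513, without arsenic replicate 2), and GCLM at 6 h without mercury replicate 3 (adjusted p = 0.0535). CHAC1 was lost without any of 4 libraries at 6 h (up to 0.245, without mercury replicate 2) and at 12 h (up to 0.17, without mercury replicate 2). CTH at 12 h was lost without any of 4 libraries (up to 0.175, without arsenic replicate 2), and GSR at 24 h without arsenic replicate 1 (adjusted p = 0.0769). By 24 h the differences of GCLM (-0.08, interval -0.26 to 0.10) and CTH (-0.42, interval -0.95 to 0.11) did not pass the test.

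Arsenic and cadmium differed in 5 pairs, each higher in arsenic. These were 0 genes at 1.5 h (0% of all genes), GCLM at 3 h (LFC of arsenic against cadmium 0.55 ± 0.10, adjusted p = 2.74e-04, beside 0.138%), 0 genes at 6 h (1.18%), CHAC1 at 12 h (1.64 ± 0.29, adjusted p = 3.47e-05, beside 5.77%) and GCLM, CHAC1 and CTH at 24 h (1.36, 2.14 and 1.91, beside 10.2%). The 24 h differences had adjusted p = 2.7e-19, 6.24e-08 and 2.16e-06. At 1.5 and 6 h, 0 and 3 of the 8 genes had an unadjusted p under 0.05, and DESeq2 called CTH at 6 h (adjusted p = 0.0406). GSTP1 did not differ by the test at 24 h (LFC 0.17, adjusted p = 0.335), but without cadmium replicate 3, the library at 715 CPM, it was higher in arsenic by 0.37 (adjusted p = 0.0218).

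Genes around the set were read from lists of the same pathways. The share of all genes called higher at 24 h was 6.54% in arsenic, 1.56% in cadmium and 13.9% in mercury, and the share called lower was 7.75%, 0.632% and 13.9%, so that 1 lower gene among 8 to 10 tested in mercury is near the background. Cystine uptake and glutathione transport, with 9 of 13 genes tested, had 3 genes higher in arsenic, 1 in cadmium and 4 in mercury at 24 h, and 1 lower in mercury. SLC7A11 and SLC3A2 form the cystine-glutamate exchanger. SLC7A11 had an LFC of 2.13 ± 0.11 in arsenic and 1.84 ± 0.11 in mercury at 24 h, and in mercury it was already called at 1.5 h (0.46, adjusted p = 0.0354). SLC3A2 had an LFC of 1.68 in arsenic, 0.69 in cadmium and 1.91 in mercury at 24 h. The other calls at 24 h were the exporters ABCC2 (1.19 in arsenic, 1.45 in mercury) and ABCC1 (0.86 in mercury), and SLC25A39, which carries glutathione into mitochondria, was lower in mercury (-0.73). These 3 were named after their values were seen.

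The transferases other than GSTP1, of which 10 of 21 were tested, had 3 genes higher in arsenic, 0 in cadmium and 3 higher and 1 lower in mercury at 24 h. MGST1, a microsomal transferase, had an LFC of 1.20 ± 0.17 in arsenic and 1.13 ± 0.17 in mercury, and GSTM3 one of 2.03 ± 0.59 and 1.68 ± 0.61. GSTO1 (0.32 and 0.64) completed the higher genes, and GSTK1 was lower in mercury (-0.54), both named after their values were seen. Of the glutaredoxins and glyoxalases (7 of 9 tested), 3 were higher in arsenic, 0 in cadmium and 3 in mercury. GLRX, which removes glutathione from proteins, had an LFC of 1.60 ± 0.25 in arsenic and 2.55 ± 0.24 in mercury, GLRX2 one of 0.49 and 0.56, and GLO1, named after its values were seen, one of 0.38 and 0.43.

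Of the peroxidases, 2 of 8 were tested, GPX4 and GPX8. GPX4, which reduces lipid peroxides, was lower in arsenic (-0.68 ± 0.14, adjusted p = 1.87e-04) and mercury (-0.85 ± 0.14, adjusted p = 1.39e-06) at 24 h. The share of all genes called lower there was 7.75% and 13.9%. GPX8 was higher in mercury (0.53). The methionine cycle, with 8 of 12 genes tested, had 0 genes called in arsenic and cadmium at 24 h and 1 in mercury, methionine synthase (MTR, -0.62). Cysteine catabolism and sulfide enzymes (9 of 11 tested) had 2 higher in arsenic, 0 called in cadmium, and 1 higher and 1 lower in mercury. They were GOT1 (0.90 in arsenic, 0.92 in mercury), MPST (-0.77 in mercury) and ADO (0.60 in arsenic, named after its value was seen). The other enzymes of the gamma-glutamyl cycle, 6 of 13 tested, had 0 genes called at 12 and 24 h in each metal.

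In cadmium, more of these genes were called at 12 h, when 5.19% of all genes were higher and 2.99% lower. Those higher were SLC7A11 (0.99), SLC3A2 (1.004), ABCC1 (0.97), MGST1 (0.61), GLRX (0.75, adjusted p = 0.0437) and GOT1 (0.43), and MTR was lower (-0.50, adjusted p = 0.0448).

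Last, the genes whose group means were most like those of the called members were looked up, as Pearson's r of mean log2 CPM over the 20 groups among 6469 or 6470 genes with a mean of at least 20 CPM. For GCLM these were SLC7A11 (0.96), SLC7A5 (0.954) and SESN2 (0.952), and for GCLC LRIF1 (0.913), SLC7A5 (0.906) and CEBPB (0.905). CTH was most like SLC3A2 (0.98), GARS1 (0.975) and TRIB3 (0.971), and CHAC1 like DDIT4 (0.957), SLC7A11 (0.939) and CEBPB (0.923). GSR followed ATP6V0E1 (0.955), FBXL13 (0.952) and LRIF1 (0.95). Within the set, r was 0.927 between GCLM and CTH and 0.901 between GCLM and GCLC, and with the genes that were not called it was 0.578 between GCLM and GSTP1, 0.428 between GCLM and GGCT and 0.00747 between GCLM and GSS. Over all pairs of a called and an uncalled gene, r ran from -0.0807 (CHAC1 and GSS) to 0.657 (GSR and GSTP1). The lowest r between called genes was 0.767 (GSR and CHAC1). The 20 means share depth and time course, so these values are descriptions. In bulk RNA, a change in each cell and a change in the share of cells that respond cannot be told apart.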

How the data were processed

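RNA of 60 libraries was sequenced from its 3′ ends (QuantSeq, strand-specific). The authors aligned reads to GRCh38 with STAR 2.7.9a (the submitters' processing notes), assigned them to exons of GENCODE (basic set) in Union mode, and deposited whole-number counts per gene without normalization. The table also held 92 spike-in rows, all at 0. Samples were grouped by the treatment in the labels.

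One model of all 60 libraries was fitted with edgeR 4.0.16 under R 4.3.3, with 1 coefficient per group, TMM factors (0.934 to 1.03) and filterByExpr (minimum count 10, minimum total 15), which kept 12341 genes. P-values of the quasi-likelihood test were adjusted for each comparison separately (Benjamini-Hochberg), and genes were called at an adjusted p under 0.05. SE and 95% intervals come from that test, and CPM from TMM-scaled totals. Precision is limited by counts of 2215276 to 4404609 per library, and intervals cover these libraries only. The code was tested on simulated data. No replicates were copies (lowest chi-square per degree of freedom 2.02 over 60 pairs).

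The members and lists were chosen with earlier results of these data known. From each list, the 2 genes with the largest absolute LFC at 24 h among those called were named, and for each called member with an LFC beyond 1 the 3 genes of highest r. Alternatives were DESeq2 1.42.0, RLE size factors, no or a stricter filter (20 counts in 12 libraries), only the 6 libraries compared, a replicate block, and each library left out. Promoters came from RefSeq (GRCh38.p14), and shared 50-base stretches from GENCODE transcripts.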

Additional observations from a re-analysis of the deposited data

Results flagged for a closer look

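The cadmium effect on GCLM differed between 12 and 24 h: the LFC against non-treated cells was 1.65 at 12 h and 0.59 at 24 h, and the difference of -1.056 passed the test of the difference itself (edgeR, adjusted p = 6.36e-07). The 3 cadmium libraries stood at 371 to 389 CPM at 12 h and at 177 to 208.0 CPM at 24 h.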

How the results depend on the processing

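The number of gene and time pairs called higher was 13 in arsenic, 7 in cadmium and 17 in mercury. It ranged from 12 to 14, from 5 to 7 and from 15 to 18 when 1 library was left out, and was 14, 7 and 18 with DESeq2. None of the 8 genes was called lower under any of these alternatives. Pairs of metals differed in 5 (arsenic and cadmium), 7 (arsenic and mercury) and 15 (cadmium and mercury) gene and time pairs, with ranges of 5 to 7, 5 to 9 and 14 to 15 with 1 library left out. The number of effects that changed from 12 to 24 h and of genes called over time in non-treated cells was 1 each under every alternative run. Over 120 gene comparisons with non-treated cells, no alternative turned the direction of a called LFC, 29 alternatives lost a call and 6 gained one. The gained calls were GCLC in arsenic at 12 h and in mercury at 6 h, and the cause was not tested. Leaving out 1 library moved none of these totals by over 1.5 times, but it did so for the count at a single time in 7 of 37 comparisons. The 4 cadmium calls at 12 h were 2 without cadmium replicate 3 or non-treated replicate 1. The 2 mercury calls at 1.5 h were 0 without non-treated replicate 2 and 1 without mercury replicate 1 or 3 or non-treated replicate 3. The other 5 were arsenic against mercury at 1.5, 6, 12 and 24 h and cadmium against mercury at 1.5 h, and the 2 arsenic-mercury calls at 12 h were 0 without arsenic replicate 2 or 3 or mercury replicate 2.

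Libraries with the same replicate number did not deviate together (correlation -0.278 to 0.0837 over 45 pairs, 0 of them above 0.1), and replicate numbers were therefore not used for pairing. With replicate number as a block, the counts were 12, 7 and 17 for the 3 metals and 6, 8 and 15 for the pairs of metals. CTH in arsenic at 6 h was no longer called (adjusted p = 0.054), and GCLM at 12 h differed between arsenic and cadmium (adjusted p = 0.0429) and between arsenic and mercury (adjusted p = 0.0381).

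Low counts limit CHAC1, CTH and GCLC, and CBS could not be tested. With 3 libraries a group, exact tests of the GCLM to GCLC ratio cannot go below p = 0.1.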
